A study of Mus musculus with 4 samples.

Results

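Genes tied to glaucoma by human genetics or by work on the eye's drainage tissue were measured across the posterior eyes of mice. There were 9 of them among the 32285 genes in the matrices, chosen by name and each matching 1 row: Myoc, Optn, Efemp1, Foxc1, Tgfb2, Nmnat2, Cyp1b1, Ltbp2 and Angptl7. Visium, which captures RNA on a grid of barcoded spots under a tissue section and counts it as unique molecular identifiers (UMIs), was run on cryosections of fresh-frozen posterior eyes from C57BL/6J mice. There were 4 capture frames, labelled as biological replicates 1 to 4, with retina as the tissue and all retinal cell types as the cell type, and 1 treatment label for all, Naive+AAV2/2. The study design names wild-type controls and eyes taken 2 or 4 weeks after receiving an AAV2/2 vector that carries Wif1, which encodes a secreted inhibitor of Wnt signalling, from a CMV promoter (CMV-Wif1-HA-IRES-GFP or CMV-Wif1-HA), with CMV-IRES-GFP as the control vector. The labels do not say which frame holds which of these, whether a frame holds several, or how many animals it holds. No condition could therefore be compared, a frame's value may pool conditions, and the question answered here is in which tissue of the posterior eye each gene lay. The p-values reflect only how these 4 frames varied, and some of that variation may be technical.

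Glaucoma is a loss of retinal ganglion cells and of their axons in the optic nerve, for which pressure inside the eye is the main known risk. That pressure is set by the outflow of fluid through the trabecular meshwork at the front of the eye, and most of these genes are studied there. Myoc encodes myocilin, a secreted protein whose mutant forms cause open-angle glaucoma, and Angptl7 encodes a secreted angiopoietin-like protein of the cornea, sclera and drainage tissue. Efemp1 (fibulin-3) and Ltbp2 encode matrix proteins of elastic fibres and microfibrils, and Tgfb2 encodes a growth factor that such matrix stores. Foxc1 is a transcription factor of neural crest and mesenchyme, and Cyp1b1 is an oxidising enzyme whose loss causes congenital glaucoma. Optn encodes optineurin, an autophagy receptor, and Nmnat2 makes NAD in axons and keeps them alive.

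By position in GRCm38, Myoc lies at chr1:162639150-162649694, Optn at chr2:5020521-5064399, Efemp1 at chr11:28853154-28926743, Foxc1 at chr13:31806646-31810635 and Tgfb2 at chr1:186622787-186709697. Nmnat2 lies at chr1:152954781-153119266, Cyp1b1 at chr17:79706940-79715061, Ltbp2 at chr12:84783212-84876558 and Angptl7 at chr4:148495181-148500462. All 9 are protein-coding genes. Angptl7 sits within the span of Mtor, which runs on the opposite strand, Myoc overlaps Myocos, Tgfb2 overlaps the long non-coding gene Gm35655 and a small nucleolar RNA gene, and Ltbp2 overlaps D030025P21Rik. How the counting treated strand is not given in the sources used here, so reads from such partners cannot be told apart. For Mtor itself, the log2 fold between the fibrous region and the neural retina described below was -0.51 (standard error 0.56, n = 4 frames), with an adjusted p of 0.596 in edgeR's quasi-likelihood test.

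The 250 bases before the transcription start are shown for Myoc, Angptl7 and Foxc1. These were the genes whose level was higher in the fibrous region than in the neural retina. They come from RefSeq on GRCm38.p6, written 5′ to 3′ on the gene's own strand, and end at the base before the start. Capitals mark TATAAA (the core of a TATA box) or GGGCGG (a GC box), the motifs searched on both strands, which do not overlap each other.
Myoc, chr1:162638900-162639149, plus strand: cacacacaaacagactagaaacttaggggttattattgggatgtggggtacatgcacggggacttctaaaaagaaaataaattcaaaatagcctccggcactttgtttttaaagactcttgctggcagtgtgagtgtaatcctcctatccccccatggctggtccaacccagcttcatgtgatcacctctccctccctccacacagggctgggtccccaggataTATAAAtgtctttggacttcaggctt
Angptl7, chr4:148500463-148500712, minus strand: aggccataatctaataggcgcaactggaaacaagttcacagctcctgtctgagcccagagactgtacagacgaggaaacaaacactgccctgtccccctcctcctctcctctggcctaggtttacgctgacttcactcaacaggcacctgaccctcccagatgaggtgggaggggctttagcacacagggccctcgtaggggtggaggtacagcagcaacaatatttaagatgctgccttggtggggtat
Foxc1, chr13:31806396-31806645, plus strand: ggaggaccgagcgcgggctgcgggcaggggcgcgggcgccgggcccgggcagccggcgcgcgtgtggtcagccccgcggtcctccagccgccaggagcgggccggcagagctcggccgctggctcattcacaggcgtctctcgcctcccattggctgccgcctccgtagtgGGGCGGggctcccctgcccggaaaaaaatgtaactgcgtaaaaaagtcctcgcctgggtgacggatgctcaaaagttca
The Myoc window held TATAAA starting 26 bases before the start, the Foxc1 window held GGGCGG starting 79 bases before it, and the Angptl7 window held neither. Among 32851 mouse windows of the same length, 12.4% held TATAAA and 32.7% held GGGCGG on either strand. The Foxc1 window had 29 CG pairs and 70.8% G plus C, against 2 pairs and 46.8% for Myoc and 4 pairs and 54.4% for Angptl7. The median over all windows was 6 pairs and 52.4%. Of the other 6 genes, Tgfb2 held TATAAA starting 31 bases before its start, and Optn, Efemp1, Cyp1b1 and Ltbp2 held GGGCGG. The Nmnat2 window held neither. These matches are descriptions of letters and not of factor binding.

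The 4 frames held 1056 to 1243 spots over tissue and 674029 to 1066633 UMIs, with frame 4 the lowest in UMIs. Spots were grouped by 162 marker genes that did not include the 9 genes, so the counts of these genes did not draw the regions. A spot covers several cells, and 1780 of 4603 spots had too few marker UMIs to be placed. Regions are named after their leading genes: photoreceptor (772 spots), inner nuclear (423), ganglion (521), pigmented (264, led by Rpe65 and Lrat of the pigment epithelium), fibrous (228, led by Col1a2 and Dcn, matrix genes of the sclera), myelin (85, with Mobp and Cldn11, myelin genes of the optic nerve, among its leading genes) and Dct (177). The Dct region was led by immune genes (Cd74, C1qa, C1qb, Igkc, Ptprc) together with melanocyte genes (Dct, Mlana, Tyrp1, Pmel) and Trpm1. Trpm1 was listed with the inner nuclear markers but was counted as a melanocyte gene when the region was named. Of the region's 10 leading genes, 5 were thus of the vascular and immune class. The region is called by the gene Dct and not by a cell type. Epithelium (94 spots, keratins) and muscle (35 spots) are not labelled retinal tissue but were in the sections. Frame 1 had no myelin spot. Nefl, a neurofilament gene of ganglion cells, averaged 12595 CPM (UMIs scaled to a region total of 1000000) in the ganglion region and 685 CPM in the photoreceptor region. Grm6, the glutamate receptor of bipolar cells, averaged 117 CPM in the inner nuclear region and 13.7 CPM in the photoreceptor region. Both are among the markers that drew the regions, so these levels describe the regions and are no separate check of them. The frames share 121 spot barcodes in all 4 because the slides carry a fixed set. Neural retina below means the photoreceptor, inner nuclear and ganglion regions together.

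Over all tissue spots the 9 genes were low in count. Efemp1 had 336 UMIs, Tgfb2 316, Foxc1 305, Angptl7 223, Nmnat2 154, Myoc 114, Optn 91, Ltbp2 31 and Cyp1b1 14. Efemp1 stood at 125, 91.9, 122 and 26.7 CPM in frames 1 to 4. Angptl7 stood at 98.2, 43.1, 83.6 and 22.3 CPM. Both genes were lowest in frame 4, and for Efemp1 the 95% counting interval of frame 4 (15.8 to 42.2 CPM) lay below that of each other frame. Myoc gave 41.3, 35.6, 29.4 and 19.3 CPM in the same order. Nmnat2 and Optn ran the other way, with frame 4 highest, Nmnat2 at 32.4, 47.8, 33.9 and 65.3 CPM and Optn at 26.8, 25.3, 16.9 and 37.1 CPM. Frame 4 also had the fewest fibrous spots (25 against 65 to 70) and the fewest Dct spots (20 against 46 to 60), and how much of these differences that makes was not tested. Foxc1 averaged 85.4 ± 22.6 CPM (SD, n = 4 frames), Tgfb2 87.8 ± 24.2, Ltbp2 8.74 ± 1.14 and Cyp1b1 3.84 ± 2.87. Intervals and limits here cover counting error only.

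**Figure D1:**
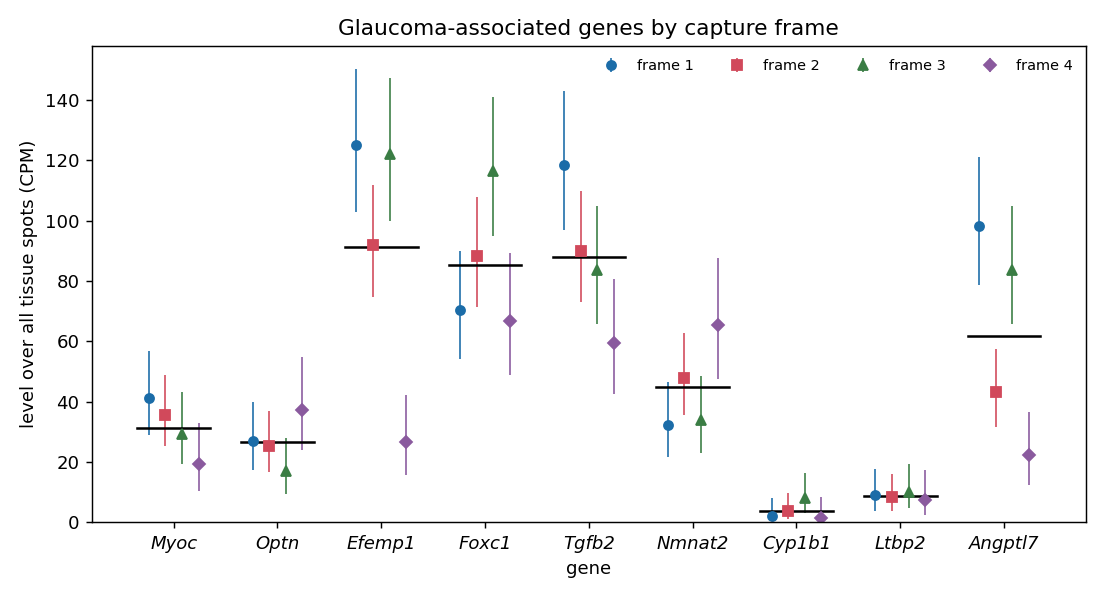
Level of each gene over all tissue spots (vertical axis, CPM) in each of the 4 capture frames, with 95% Poisson counting intervals as bars and the mean of the frames as a black line. Efemp1 and Angptl7 are lowest in frame 4 (26.7 and 22.3 CPM), where Nmnat2 and Optn are highest (65.3 and 37.1 CPM).

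Myoc and Angptl7 were higher in the fibrous region than in the neural retina. Of the 114 Myoc UMIs, 50 (43.9%) lay in the fibrous region, which held 9.80% of all UMIs. Of the 223 Angptl7 UMIs, 84 (37.7%) lay there. In the fibrous region Myoc stood at 187, 106, 161 and 117 CPM in frames 1 to 4, and in the neural retina at 11.6, 16.9, 6.54 and 10.2 CPM. Angptl7 stood at 338, 115, 303 and 234 CPM in the fibrous region and at 46.3, 18.6, 67.5 and 7.64 CPM in the neural retina. The groups did not overlap for either gene, and the lowest fibrous frame was above the highest frame of the neural retina. The share of all genes whose frames separate in this way was not counted. Here and for the other genes below, such a separation is a description only. The log2 fold was 3.61 for Myoc (standard error 0.46, n = 4 frames, adjusted p = 2.29e-06) and 2.81 for Angptl7 (standard error 0.36, adjusted p = 3.46e-06), from edgeR's quasi-likelihood test with frame as a block and Benjamini-Hochberg adjustment over all 3664 genes tested. In that comparison 15.6% of genes passed at an adjusted p under 0.05, 6.63% as higher in the fibrous region and 8.98% as lower. In sections such as these, more cells of a type and more RNA per cell cannot be told apart.

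Foxc1 was also higher in the fibrous region, with less support. It stood at 93.3, 70.7, 249.8 and 58.5 CPM there, against 46.3, 50.6, 37.0 and 43.3 CPM in the neural retina, so all 4 fibrous frames were above all 4 of the neural retina. Its log2 fold was 1.41 (standard error 0.42, adjusted p = 0.0230, edgeR). Frame 3 held 28 of the 46 fibrous Foxc1 UMIs, and without it the log2 fold was 0.68 (adjusted p = 0.463). The direction turned where spots were scaled to their marker UMIs before clustering (-0.61, adjusted p = 0.521) or placed with at least 10 marker UMIs (-0.67, adjusted p = 0.509). Efemp1 and Tgfb2 were tested too and did not pass, with log2 folds of 0.82 (adjusted p = 0.225) and -0.17 (adjusted p = 0.854). The other 4 genes did not pass the count filter of this fit, which works on counts relative to library size. A gene can pass that filter through 1 side alone. Myoc entered with 50 UMIs in the smaller fibrous libraries and 23 in the neural retina, and Nmnat2 did not, with 5 and 101.

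The fibrous spots were mixtures. The 20 photoreceptor markers summed to 67438 CPM (60530 to 77128 over frames) in the fibrous region, with all 20 detected, against 96398 CPM (90969 to 98881) in the photoreceptor region. The 17 pigment markers summed to 8055 CPM (5380 to 10965). The 12 markers of the cornea and lens at the front of the eye summed to 838 CPM (731 to 1015) in the fibrous region, against 187 CPM (150.3 to 204) in the photoreceptor region, 221 CPM (104 to 460.3) in the inner nuclear region and 91.6 CPM (67.7 to 144) in the ganglion region. In the pigmented region they summed to 1035 CPM (579 to 1286), above the fibrous mean. Of these 12, 7 were at 0 in the fibrous region, among them the corneal keratin Krt12 and the lens genes Lim2, Mip and Bfsp1. The 4 that were tested include Aldh3a1 (a corneal crystallin) and Col8a2 (a basement membrane collagen of the cornea). All 4 were higher in the fibrous region (3 passed in DESeq2), against 6.63% of all genes as higher there. A gene scarce in the neural retina enters this fit only through its fibrous counts, so the direction is partly set by the count filter. The log2 folds were 2.58 for Aldh3a1 (adjusted p = 2.35e-07, edgeR), 2.94 for Chil1 (adjusted p = 6.71e-07) and 2.53 for Col8a2 (adjusted p = 1.49e-05). The 11 muscle markers summed to 235 CPM (146 to 353) in the fibrous region, against 205 CPM (109 to 349) in the photoreceptor region. The part of any of these in the Myoc and Angptl7 values was not tested. In the muscle region itself Myoc had 6 UMIs in 6 of 35 spots, which is 372 CPM with a 95% counting interval of 136 to 809.5 CPM.

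Between the fibrous and pigmented regions Myoc was not tested and Angptl7 did not pass. Pooled over frames, Myoc was 145 CPM (95% counting interval 107 to 191) in the fibrous region and 54.5 CPM (26.1 to 100) in the pigmented region. Angptl7 was 243 CPM (194 to 301) and 54.5 CPM (26.1 to 100). These intervals leave out the variation between frames. Myoc stood at 51.5, 55.1, 17.4 and 192.9 CPM in the pigmented region, from 10 UMIs, and the range overlapped that of the fibrous region. Angptl7 stood at 360.2, 33.0, 0 and 0 CPM, also from 10 UMIs, of which 7 were in frame 1. Angptl7 was the single gene of the 9 that passed the count filter for a test between these regions. Its log2 fold of fibrous over pigmented was 1.75 (standard error 0.64, n = 4 frames, unadjusted p = 0.00900, adjusted p = 0.0908, edgeR). Of 1093 genes tested, 7.04% passed, 1.74% as higher in the fibrous region and 5.31% as lower. With Leiden clustering at resolution 1.0 the fold was 2.14 (adjusted p = 0.0114), and where spots were scaled to their marker UMIs before clustering it was -0.61 (adjusted p = 0.347).

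Between the pigmented region and the neural retina 3 of the genes were tested and none passed, against 12.6% of 3470 genes (5.39% higher and 7.23% lower). Foxc1 had a log2 fold of 1.02 (standard error 0.62, adjusted p = 0.364, edgeR), and Efemp1 had 0.53 (standard error 0.66, adjusted p = 0.741). Nmnat2 had -2.95 (standard error 1.17, adjusted p = 0.0785), from 1 UMI in 264 pigmented spots and 101 UMIs in the neural retina. Its unadjusted p of 0.0117 was the one under 0.05 among the 3 genes, and none of the 3 passed in DESeq2. Nmnat2 passed without frame as a block (adjusted p = 0.0365), with spots scaled to their marker UMIs (0.0243) and with at least 10 marker UMIs (0.0424), and Foxc1 passed under the latter settings (0.0111 and 0.0364), as higher. Tgfb2 had 2 UMIs in the pigmented region and Optn 2. Ltbp2 had 0 UMIs among 183405, which allows up to 16.4 CPM.

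**Figure D2:**
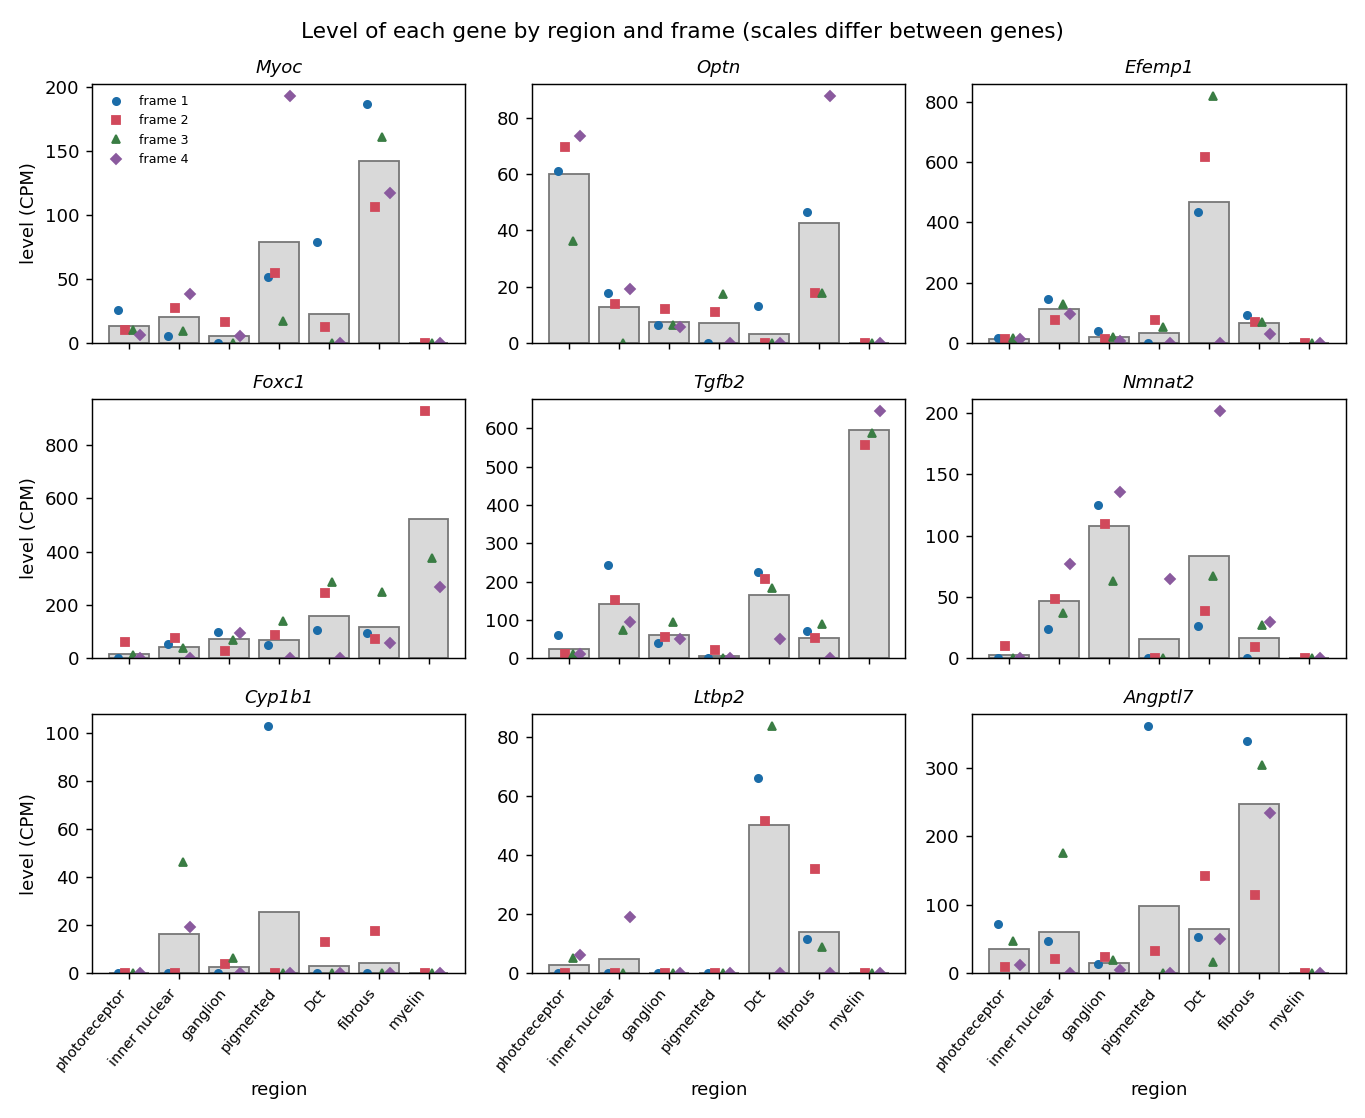
Level of each gene (vertical axis, CPM, with its own scale per gene) in 7 regions, with grey bars for the mean over frames and points for single frames with at least 10 spots in the region. Myoc and Angptl7 are highest in the fibrous region (means of 143 and 248 CPM), Efemp1 and Ltbp2 in the Dct region, Nmnat2 in the ganglion region, Optn in the photoreceptor region, and Foxc1 and Tgfb2 in the myelin region, which frame 1 lacks.

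The matrix genes Efemp1 and Ltbp2 were highest in the Dct region. Of the 336 Efemp1 UMIs, 130 (38.7%) lay in its 177 spots, which held 6.62% of all UMIs, and 50 of the spots had at least 1. Efemp1 stood at 435, 618, 819 and 0 CPM in frames 1 to 4 of the Dct region and at 65.6, 28.7, 43.6 and 20.4 CPM in the neural retina. Frames 1 to 3 were far above the neural retina, and frame 4 had no Efemp1 UMI among 19855 UMIs in 20 spots, which allows up to 151 CPM. The log2 fold was 3.64 (standard error 0.42, n = 4 frames, adjusted p = 7.75e-07, edgeR), and 3.81 without frame 4 (adjusted p = 1.04e-08). This comparison, in which 24.2% of 3575 genes passed (12.6% higher and 11.5% lower), was added after the regions had been seen.

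Ltbp2, whose product binds fibrillin, had 14 of its 31 UMIs (45.2%) in the Dct region. The levels were 66.0, 51.5, 83.6 and 0 CPM, against 0, 0, 2.18 and 5.09 CPM in the neural retina, where it had 3 UMIs. It was too low for the main fit. With no filter on low counts its log2 fold was 4.42 (adjusted p = 0.000119, edgeR), in a fit where 1253 of 16345 genes passed, 409 as higher. The 14 Dct UMIs of Ltbp2 lay in 6 spots, with 5 of them in 1 spot. Without that spot its pooled level in the region was 38.6 CPM and not 60.1 CPM. Foxc1 stood at 106, 245, 284 and 0 CPM in the Dct region (log2 fold 1.97, standard error 0.50, adjusted p = 0.00510), and Tgfb2 at 224, 206, 184 and 50.4 CPM (log2 fold 1.43, standard error 0.42, adjusted p = 0.0152). Frame 4 was the lowest for both. Neither call held in every subset of frames: without frame 2 the adjusted p was 0.120 for Foxc1 and 0.161 for Tgfb2, without frame 3 it was 0.0614 and 0.0893, and without frame 1 it was 0.0511 for Tgfb2. Angptl7 (log2 fold 1.06, adjusted p = 0.254) and Nmnat2 (0.34, adjusted p = 0.704) did not pass, and 8 of the 17 Angptl7 UMIs there came from 1 spot. Without frame 3 Angptl7 passed (log2 fold 1.82, adjusted p = 0.0181), as it did with at least 10 marker UMIs a spot (2.96, adjusted p = 7.09e-09). Without frame 2 the Angptl7 log2 fold was -0.23, and without frame 4 that of Nmnat2 was -0.021.

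The content of the Dct region varied between frames. The gene Dct itself stood at 5910, 12016, 8509 and 1914 CPM in frames 1 to 4, and Igkc, an antibody light chain, at 409, 6285, 6854 and 1007 CPM. Frame 4 was thus lowest for Dct and frame 1 for Igkc. Dct was lowest in frame 4 in the pigmented region too, at 322 CPM against 2654 to 5351 CPM in the other frames. Gja1, a gap junction gene of astrocytes that other cell types also express, was higher in the Dct region than in the neural retina by 5.07 on the log2 scale (adjusted p = 1.31e-14, edgeR). Of the other optic nerve astrocyte markers tested, Slc1a2, a glutamate transporter, was lower, with a log2 fold of -4.32 (adjusted p = 0.000972), and S100b did not pass (0.63, adjusted p = 0.463). The meningeal markers Slc13a4 and Slc6a13 were higher by 5.19 (adjusted p = 1.04e-07) and 4.30 (adjusted p = 5.48e-06). The list of 10 meningeal markers summed to 522 CPM (353 to 657 over frames) in the Dct region, with 4 at 0, against 29.4 CPM (14.9 to 46.6) in the photoreceptor region. The 14 vascular and immune markers, all detected, summed to 6849 CPM (4037 to 9801) there, against 213 CPM (194 to 228) in the photoreceptor region, and the 18 fibrous markers, with 2 at 0, to 2291 CPM (1477 to 2846). The part of these cells in the Efemp1 level was not tested.

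In the neural retina, Nmnat2 was highest in the ganglion region. It had 80 of its 154 UMIs (51.9%) there, in a region with 20.9% of all UMIs, and 2 UMIs in the photoreceptor region. The ganglion levels were 125, 109, 63.3 and 135 CPM, and the photoreceptor levels 0, 9.94, 0 and 0 CPM. The groups did not overlap. The log2 fold of ganglion over photoreceptor was 4.89 (standard error 0.68, n = 4 frames, adjusted p = 1.69e-07, edgeR). With 2 photoreceptor UMIs, Nmnat2 passed the count filter through the ganglion side alone. The direction of this fold was therefore set by the filter and is no separate result of the test. Most genes with enough counts differed between these layers: 58.6% of 2891 passed, 30.8% as higher in the ganglion region and 27.8% as lower. In the inner nuclear region Nmnat2 stood at 23.6, 48.5, 37.1 and 76.7 CPM, which overlapped the ganglion levels. The fold of ganglion over inner nuclear was 1.25 (standard error 0.45, adjusted p = 0.0420), in a comparison where 20.7% of 2564 genes passed, 10.8% as higher in the ganglion region and 9.83% as lower. Without frame 1 that adjusted p was 0.303, and without frame 2 it was 0.157.

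Efemp1 and Tgfb2 marked the inner nuclear region against the ganglion region. Efemp1 stood at 147.7, 76.2, 129.7 and 95.9 CPM in the inner nuclear region and at 39.3, 12.1, 19.0 and 5.64 CPM in the ganglion region, with no overlap. From inner nuclear to ganglion it fell by 2.59 on the log2 scale (standard error 0.50, adjusted p = 0.000178, edgeR). Tgfb2 stood at 242, 152, 74.1 and 95.9 CPM against 39.3, 56.7, 94.9 and 50.8 CPM, and frame 3 alone ran the other way. In that frame 11 of the 15 ganglion UMIs of Tgfb2 came from 1 spot. Tgfb2 fell by 1.27 on the log2 scale (standard error 0.42, adjusted p = 0.0272). Without frame 1 its adjusted p was 0.286, and without frame 2 it was 0.169. Foxc1 did not pass between these layers (log2 fold 0.44, adjusted p = 0.596). Against the photoreceptor region Foxc1 was higher in the ganglion region by 1.82 (standard error 0.77, adjusted p = 0.0496), with 98.3, 28.3, 69.6 and 95.9 CPM against 0, 59.6, 10.4 and 0 CPM. Without frame 1, 3 or 4 the adjusted p was 0.262, 0.117 and 0.0761.

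Optn ran opposite to Nmnat2. It had 45 of its 91 UMIs (49.5%) in the photoreceptor region, which held 21.4% of all UMIs. The photoreceptor levels were 61.2, 69.6, 36.3 and 73.4 CPM, and the ganglion levels 6.55, 12.1, 6.33 and 5.64 CPM, from 6 UMIs. Every photoreceptor frame was above every ganglion frame. Optn did not have enough counts for the main fit of this comparison. With no filter on low counts the log2 fold of ganglion over photoreceptor was -2.997 (adjusted p = 3.34e-05, edgeR). In that fit 2715 of 15294 genes passed, 1150 as lower in the ganglion region, and in the main fit 58.6% of genes passed. In the fibrous region, which carried many photoreceptor transcripts, Optn stood at 46.6, 17.7, 17.8 and 87.7 CPM, and its range overlapped that of the photoreceptor region.

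In the myelin region of the optic nerve, Tgfb2 and Foxc1 were the 2 of the 9 genes with any UMI. Tgfb2 had 26 UMIs in 17 of 85 spots, up to 6 of them in 1 spot. It stood at 556, 588 and 645 CPM in frames 2, 3 and 4, against 64.1, 54.5 and 40.7 CPM in the neural retina of the same frames. Its lowest myelin frame was above the highest frame of every other region in the order of 7 regions. The log2 fold was 3.19 (standard error 0.77, n = 3 frames, adjusted p = 0.000900, edgeR). Foxc1 had 17 UMIs in 10 spots, up to 5 of them in 1 spot, and stood at 927, 374 and 269 CPM against 50.6, 37.0 and 43.3 CPM. Its log2 fold was 2.97 (standard error 0.82, adjusted p = 0.00600). In this comparison 10.8% of 3032 genes passed, 4.52% as higher and 6.27% as lower. Of the 327 that passed, 41.9% were higher, and 30.7% of 459 with RLE scaling. The median log2 fold of all genes was -1.09, -1.24 with RLE scaling and -1.27 with DESeq2, so the folds of Tgfb2 and Foxc1 stand above a median well below 0.

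Those calls rest on few counts and 3 frames. Without frame 3 the adjusted p was 0.0632 for Tgfb2 and 0.204 for Foxc1, without frame 4 it was 0.360 and 0.295, and without frame 2 it was 0.0698 for Foxc1. The other 7 genes had 0 UMIs among 42695, which allows up to 70.3 CPM for each. That limit lies below the fibrous level of Myoc and above the level of Nmnat2 in all tissue spots, so a low level of these genes was not detectable. Mbp, a myelin protein, stood at 9822, 9148 and 8760 CPM in frames 2 to 4, and Gfap, an astrocyte filament, at 7969, 9148 and 4138 CPM. The 8 optic nerve astrocyte markers summed to 3950 CPM (3386 to 4387) in the myelin region, with Aldh1l1, Itih3 and Pax2 at 0, against 199 CPM (141 to 240) in the ganglion region. Of the 4 that were tested, 3 were higher in the myelin region than in the neural retina, against 4.52% of all genes as higher there. These were Gja1 by 4.06 (adjusted p = 1.36e-09, edgeR), S100b by 4.10 (adjusted p = 2.89e-06) and Sox9 by 3.49 (adjusted p = 0.000586). Of the 10 meningeal markers, 7 were at 0 there, and the list summed to 390 CPM (107 to 741). The 18 fibrous markers, with 5 at 0, summed to 4352 CPM (3171 to 6301) in the myelin region, below the 6772 CPM (5610 to 7276) of the fibrous region and above the 597 to 1417 CPM of the 3 neural retina regions. Among them Col1a1 stood at 185 to 215 CPM and Dcn at 0 to 53.7 CPM. The part of meninges, fibrous tissue or astrocytes in the Foxc1 and Tgfb2 levels was not tested.

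**Figure D3:**
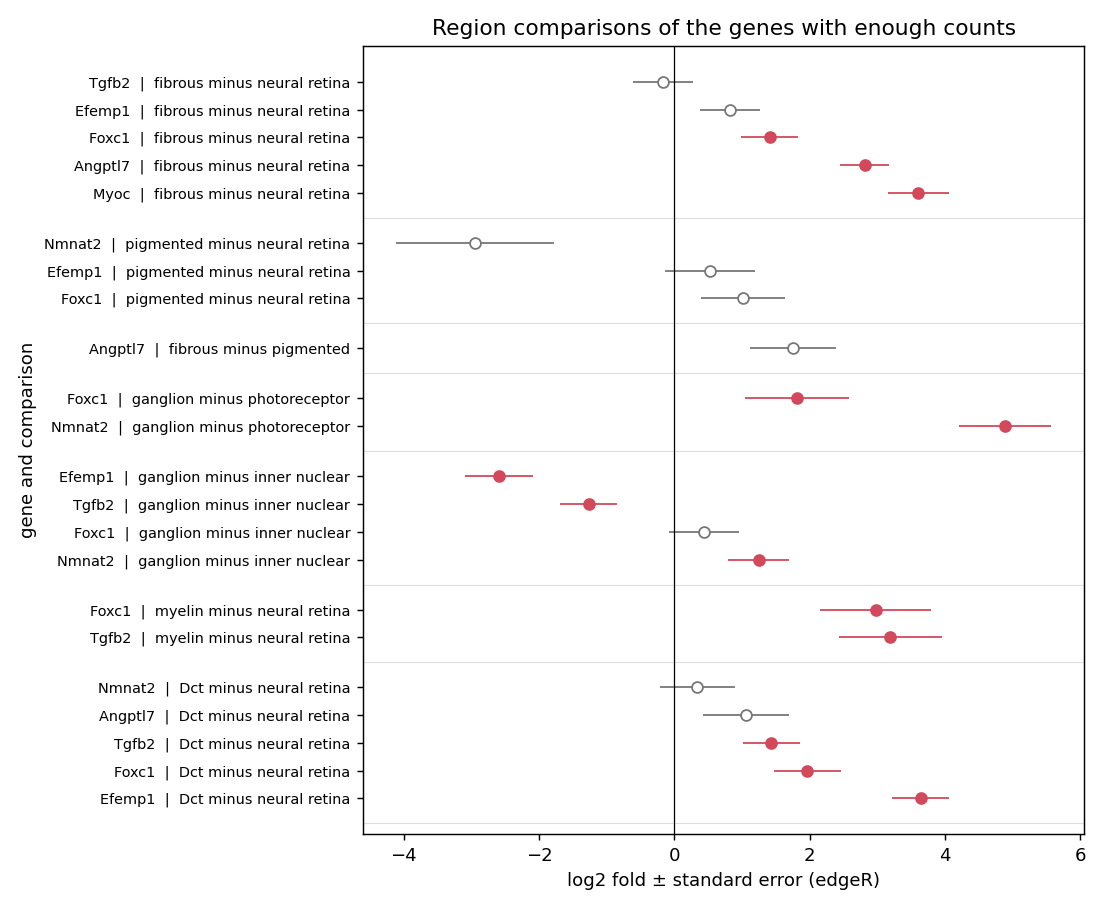
Log2 folds between regions with their standard errors (horizontal axis) for the genes with enough counts in each comparison, from edgeR's quasi-likelihood test over 4 frames, or 3 for the myelin region. Filled red points passed at an adjusted p under 0.05 and open points did not. Nmnat2 between ganglion and photoreceptor regions (4.89), Efemp1 between Dct region and neural retina (3.64) and Myoc between fibrous region and neural retina (3.61) are the 3 points farthest to the right.

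Cyp1b1 could not be placed. Its 14 UMIs lay in 12 spots, 6 of them in the inner nuclear region (5 in frame 3), 2 each in the ganglion, pigmented and fibrous regions, and 1 in the Dct region. Both pigmented UMIs were in 1 spot of frame 1. The ranges of all neighbouring regions overlapped. In the photoreceptor region it had 0 UMIs among 753806, which allows up to 3.98 CPM.

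The UMIs of each gene were spread over regions in different ways. By raw share Foxc1 was the least concentrated of the genes above 50 UMIs, with no placed region holding more than 16.4% of its UMIs. Against region size it was not even, at 0.214 times the share of all UMIs in the photoreceptor region and 4.598 times in the myelin region. Of its UMIs, 24.9% were in spots that could not be placed, which held 15.02% of all UMIs. Tgfb2 had 24.1% in the inner nuclear region, 14.2% in the Dct region, 13.9% in the ganglion region and 8.23% in the myelin region, which held 1.21% of all UMIs. The myelin share was 6.79 times the region's share of all UMIs for Tgfb2 and 4.598 times for Foxc1. The Dct share was 5.85 times for Efemp1 and 6.82 times for Ltbp2, and the fibrous share was 4.47 times for Myoc and 3.84 times for Angptl7.

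**Figure D4:**
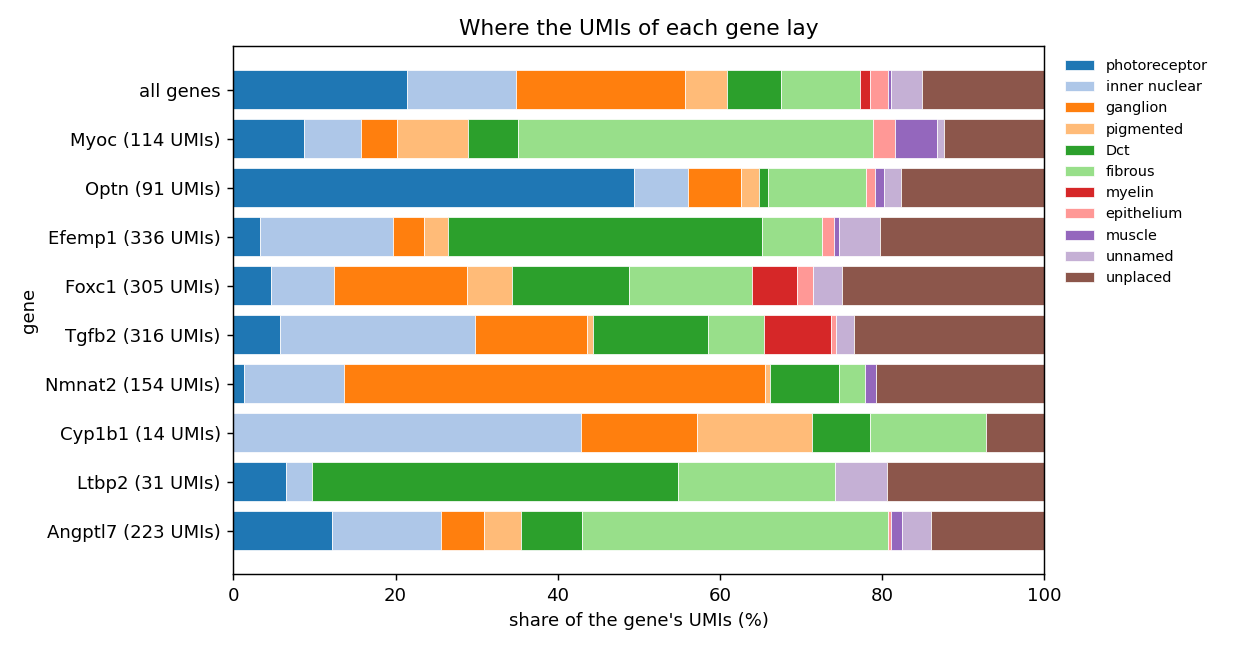
Share of each gene's UMIs by region (horizontal axis, %), summed over the 4 frames, with all genes together as the top bar and unplaced spots at the right end. The fibrous region holds 43.9% of Myoc and 37.7% of Angptl7 UMIs against 9.80% of all UMIs, and the ganglion region holds 51.9% of Nmnat2 UMIs against 20.9%.

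Other genes of the same pathways were read as lists in the same fits. Of 19 other elastic fibre and microfibril genes, 8 had enough counts in the Dct comparison. All 8 passed as higher in the Dct region (7 passed in DESeq2), against 12.6% of all genes as higher there. Their median log2 fold was 3.37 against -0.13 for all genes. A gene scarce in the neural retina enters the fit only through its Dct counts, so the direction among the tested genes is partly set by the count filter. Fbln1, a fibulin like Efemp1, was higher by 5.02 (adjusted p = 2.35e-10, edgeR), Ltbp1 by 4.86 (adjusted p = 3.42e-07) and Mfap4, a microfibril protein, by 4.33 (adjusted p = 2.90e-07). In the fibrous region 2 of the 19 were tested and both passed as higher, Timp3, an inhibitor of matrix proteases, by 2.38 (adjusted p = 1.77e-08) and Fbln1 by 2.36 (adjusted p = 0.000353). In the myelin region Ltbp1 was higher by 3.79 (adjusted p = 0.000535) and Adamtsl4 by 3.01 (adjusted p = 0.00185), while Timp3 did not pass, with 0.92 (adjusted p = 0.481). In the pigmented region Timp3 was the single gene tested and was higher by 3.63 (adjusted p = 1.84e-35, edgeR). Of all genes tested, 6.63%, 4.52% and 5.39% passed as higher in the fibrous, myelin and pigmented regions.

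Few TGF-beta signalling genes had enough counts. Here too a gene scarce in the neural retina enters a fit only through its counts in the other region. The direction among the tested genes is thus partly set by the count filter. Of 20, 5 were tested in the Dct region and 3 were higher, against 12.6% of all genes as higher there: Tgfbr3, a co-receptor for TGF-beta ligands, by 4.21 (adjusted p = 3.07e-07, edgeR), Bmp4, a related ligand, by 3.90 (adjusted p = 4.11e-06), and Tgfbi, a matrix protein induced by TGF-beta, by 2.76 (adjusted p = 5.50e-05). In the pigmented region, where 5.39% of all genes were higher, 3 were tested, and Bmp4 was higher by 4.70 (adjusted p = 1.59e-12) and Tgfbr3 by 4.05 (adjusted p = 1.60e-10). In the myelin region Skil, a repressor of the pathway, was the single one tested and did not pass (log2 fold -1.89, adjusted p = 0.444). Of 30 other genes at glaucoma loci, 2 to 4 were tested in a comparison. Col8a2 was higher in the fibrous region by 2.53 (adjusted p = 1.49e-05) and in the pigmented region by 3.65 (adjusted p = 1.91e-12), and it was lower in the fibrous than in the pigmented region, by a log2 fold of -1.26 (adjusted p = 0.0322), a call that DESeq2 did not give. None of the others passed in any of the 7 comparisons in edgeR, 1 had an unadjusted p under 0.05 in the ganglion against photoreceptor comparison and 1 in the myelin comparison, and none passed in DESeq2.

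The lists around Nmnat2 and Optn were mixed in direction between the ganglion and photoreceptor regions, where 58.6% of all genes passed, 30.8% as higher and 27.8% as lower. Of 16 genes of NAD synthesis and axon survival, 5 were tested between ganglion and photoreceptor regions: 2 were higher in the ganglion region, 1 was lower and 2 did not pass, with a median log2 fold of 0.03 against 0.01 for all genes. Mapk10, a stress kinase of neurons, was higher by 4.66 (adjusted p = 5.10e-17, edgeR) and Bcl2l1, which blocks cell death, by 1.56 (adjusted p = 0.00208). Map3k12, the kinase that signals axon injury, had a log2 fold of -1.73 (adjusted p = 5.98e-05). Mapk10 was also higher in the ganglion than in the inner nuclear region, by 1.33 (adjusted p = 4.40e-06). Of 18 autophagy receptors and partners of optineurin, 9 were tested between ganglion and photoreceptor regions: 3 were higher in the ganglion region, 2 were lower and 4 did not pass, with a median log2 fold of 0.21. Sqstm1, the receptor p62, was higher in the ganglion region by 2.16 (adjusted p = 1.81e-07). The receptors Tax1bp1 and Nbr1 were lower there, with log2 folds of -1.39 (adjusted p = 6.03e-05) and -1.77 (adjusted p = 0.000363). In the fibrous, pigmented and Dct regions none of the 13, 11 and 13 autophagy genes tested passed against the neural retina in edgeR, 2, 0 and 0 had an unadjusted p under 0.05, and none passed in DESeq2.

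Genes with patterns like those of the 9 were sought across 33 units of frame and region with at least 10 spots, by Pearson's r of log2(CPM + 10) over 4855 genes. The units share frames and depth, and r is a description only. For Myoc the highest were Gm26771 (r = 0.78), Sfrp2 (0.77) and Col1a1 (0.76), the last of which helped to draw the regions. For Efemp1 they were Tap1 (0.78), the microfibril gene Fbn1 (0.72) and Hmgn3 (0.72). For Tgfb2 they were Aqp4 (0.88), a water channel of glia that also helped to draw the regions, Cp (0.82) and Ctss (0.82). For Foxc1 they were Ctss (0.78), Col6a2 (0.77, a marker used for the regions) and Ednrb (0.74). For Nmnat2 they were Lrrtm1 (0.83), Pcp4 (0.82) and Pcdh7 (0.80), and for Optn they were Slc25a23 (0.77), Stard7 (0.75) and Gucy2e (0.74), a guanylate cyclase of photoreceptors. For Angptl7 they were Eml3 (0.76), Gfpt1 (0.69) and Rnf11 (0.67). Among the 9 genes themselves the highest r was between Efemp1 and Ltbp2 (0.70, with 9 spots holding both), followed by Foxc1 and Tgfb2 (0.64, 13 spots) and Myoc and Angptl7 (0.43, 17 spots). Myoc and Tgfb2 had the lowest (-0.46, 7 spots).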

How the data were processed

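The deposited matrices hold counts, whole numbers of UMIs per gene and spot over tissue, which the authors made with Space Ranger 2.0.0 per the file headers, on mm10 per the submitters' processing notes. The annotation release and the strand setting appear in no source used here. The labels call the molecule nuclear RNA. Slide alignment files were not used, so regions carry no positions.

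The 9 genes, lists and comparisons were chosen with earlier results of these data known. Spots with at least 20 UMIs of 162 panel genes (11 classes) were scaled to 10000 by all their UMIs (chosen after panel scaling left Col1a1 about equal in the pigmented and fibrous regions), logged, standardised (limit 10), reduced to 10 components and clustered (scanpy 1.11.5, 15 neighbours, Leiden resolution 0.6). A cluster took the class with at least 3 of its 10 leading genes. The Dct name and comparison were set after seeing the data. A cluster with at least 4 melanocyte genes among its leading genes, and few of the pigment epithelium, took that name in place of its class. By class alone the main Dct cluster would have been named vascular and immune. At Leiden resolution 1.0 and with k-means, separate Dct and vascular and immune clusters formed. No doublet caller was run. UMIs were summed per frame and region (at least 10 spots a side) without panel genes and tested with edgeR 4.0.16 (robust quasi-likelihood, TMM, filterByExpr with a minimum count of 10, frame as a block, limit 0.05 after Benjamini-Hochberg). Panel genes stayed in the totals behind CPM. Regions and tests used the same spots. A count of 0 is read against a limit of 3 UMIs, and intervals are exact 95% Poisson. Each frame supplies both sides of a comparison, so frames pair them, though the correlation of a pair's deviations was only -0.028 to 0.152. The script was tested on simulated data. Named genes are the 9, up to 3 per list and comparison with the lowest p-value, and the 3 most alike per gene with at least 50 UMIs (among genes with at least 100). Mtor and the markers given per region were chosen after their values were seen.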

Additional observations from a re-analysis of the deposited data

Results flagged for a closer look

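In 41 groups of 4 frames (the level of a gene in a region, or over all tissue), 2 had a single frame far from the others by Dixon's ratio of the gap to the range, and chance gives about 1 in 20. Tgfb2 in the photoreceptor region stood at 61.2 CPM in frame 1 and at 9.94 to 12.2 CPM in the other 3 frames (ratio 0.955, from 12, 2, 2 and 2 UMIs). Angptl7 in the pigmented region stood at 360.2 CPM in frame 1 and at 0 to 33.0 CPM in the others (ratio 0.908, from 7, 3, 0 and 0 UMIs). Frame 1 was also the highest frame for Tgfb2 and Angptl7 over all tissue, at 118 and 98.2 CPM.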

How the results depend on the processing

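The calls for Myoc and Angptl7 (fibrous against neural retina), Efemp1 (Dct region, and ganglion against inner nuclear) and Nmnat2 (ganglion against photoreceptor) held under every alternative that gave a value: 10, 12, 13, 12 and 12 fits. Over alternatives the log2 fold of Myoc ran from 3.25 to 4.21 and that of Angptl7 from 2.00 to 3.28. Foxc1 in the fibrous region lost its call with DESeq2 (adjusted p = 0.0894), with no filter (0.168) and with k-means (0.228), in an adjusted p range of 0.00356 to 0.521. It turned to -0.61 with spots scaled to panel UMIs and to -0.67 with at least 10 panel UMIs. The latter setting also turned Efemp1 there to -0.85, and Tgfb2 there turned to 0.078 at Leiden resolution 1.0 and 0.21 with k-means. Foxc1 between ganglion and inner nuclear turned to -0.65 with k-means, and Angptl7 between fibrous and pigmented to -0.61 with panel scaling. In the Dct region Angptl7 turned to -0.26 with at least 40 panel UMIs and ran from -0.23 to 1.82 with 1 frame left out, and it passed without frame 3 (adjusted p = 0.0181) and with at least 10 panel UMIs (2.96, adjusted p = 7.09e-09), and Nmnat2 turned to -0.20 with no filter and ran from -0.021 to 0.60 with 1 frame left out. Foxc1 between ganglion and photoreceptor passed in 6 of 13 alternatives. Between ganglion and inner nuclear DESeq2 gave adjusted p-values of 0.209 for Nmnat2 and 0.126 for Tgfb2, and with no filter they were 0.0538 and 0.176. With no filter the myelin values were 0.0883 for Tgfb2 and 0.187 for Foxc1, which k-means put at 0.0950, and Tgfb2 in the Dct region had 0.259. No value below 0 named as a turn here passed, and the cause was not tested.

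Counts of genes past the threshold moved by over 1.5 times as follows. Fibrous against neural retina gave 572, and 371 with DESeq2. Fibrous against pigmented gave 77, 46 with DESeq2, 31 with no filter, 46 with k-means and 142 with at least 10 panel UMIs. Ganglion against photoreceptor gave 1693, and 2715 with no filter. Ganglion against inner nuclear gave 530, 300 with DESeq2 and 250 with k-means. The replicate block moved the myelin count: 327 with frames as a block and 746 with no block. Without the block the calls of the 9 genes were the same except for Nmnat2 in the pigmented region (-3.01, adjusted p = 0.0365). Leaving out 1 frame gave 279 to 633 genes for fibrous, 233 to 515 for pigmented, 44 to 95 for fibrous against pigmented, 1464 to 1701 and 297 to 521 for ganglion against photoreceptor and inner nuclear, 47 to 330 for myelin and 540 to 1032 for Dct. At 40 panel UMIs no fibrous region formed and the myelin comparison gave no value. Depth limits Cyp1b1, Ltbp2 and Optn most.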
